A study of Cicer arietinum with 8 samples.

Results

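In chickpea (*Cicer arietinum*) roots, 67 gene loci had at least 2-fold higher FPKM under salinity stress in the salinity tolerant genotype JG62 (ST), while their FPKM in the salinity sensitive genotype ICCV2 (SS) was nearly the same with and without salt. FPKM counts the sequenced fragments of a transcript scaled by its length and the sequencing yield. Seedlings 12 days old were given 80 mM NaCl on alternate days for 6 days or were watered without salt, and roots were harvested at 18 days. Control and salinity stress roots of SS and of ST made the 4 groups, each with 2 libraries, and no group carried a transgene or a mutation named in the labels. The deposited table holds 30692 loci, 27876 of them with a gene name (Ca_ and a number), and gives 1 FPKM value per locus and group, in which the authors combined both libraries.

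Members were chosen by 4 conditions on these values. The locus had a gene name, its FPKM in ST salinity stress was at least 5, that value was at least 2 times the ST control value, and both SS values were above 0 with a ratio of stress to control between 0.8 and 1.25. All 4 columns thus took part in the choice, so the levels and ratios given here describe the members and support no test. No spread between libraries, SD or p-value can be computed from the pooled values, and the table does not give the depth of the libraries, so no difference here has a replicate check. The authors' own tests on the libraries, given with the paper, were not used here. FPKM from the SS and ST columns can be set side by side only as far as the scaling of the columns holds. At 18918 loci every group reached FPKM 1, and their median log2 ratio of ST to SS was -0.01 between the controls and 0.04 between the stressed groups. For stress to control, the ratio that the rule uses, the median log2 value at these loci was 0.04 in ST and -0.02 in SS.

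Roots meet salt first, and they face both a loss of water to the soil solution and an influx of sodium and chloride. Known responses in plant roots include export of sodium to the soil, its storage in the vacuole, retention of potassium, synthesis of compatible solutes, scavenging of reactive oxygen species and changes in the cell wall. Genotypes of a crop can differ in which of these responses they switch on and in the level at which the genes are already expressed before salt is given. A gene that responds in a tolerant genotype alone can therefore either leave a level shared with the sensitive genotype or start from a different one. The files pair the loci with Ca_ numbers only, and a search of the paper and its supplementary tables at hand by gene name and locus found no role for any of the 67 members, so they are described by their levels. Root marker genes could not be looked up for the same reason.

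The 2-fold higher level in ST was uncommon among loci that were steady in SS. Of 11772 loci with a gene name, ST salinity stress FPKM of at least 5 and an SS ratio inside the limits, 67 were members (0.569%). Without a condition on SS, 173 of 14066 loci had such a difference in ST (1.23%), so the members made up 38.7% of them. Of the other loci among the 173, 62 had an SS ratio above the upper limit, 37 had one under the lower limit and 7 were listed at 0 in an SS group. The SS ratio was at least 2 in 19 of the 173 loci. The plot of stress ratios shows the members as the upper edge of a continuous cloud, not as a separate group.

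**Figure D1:**
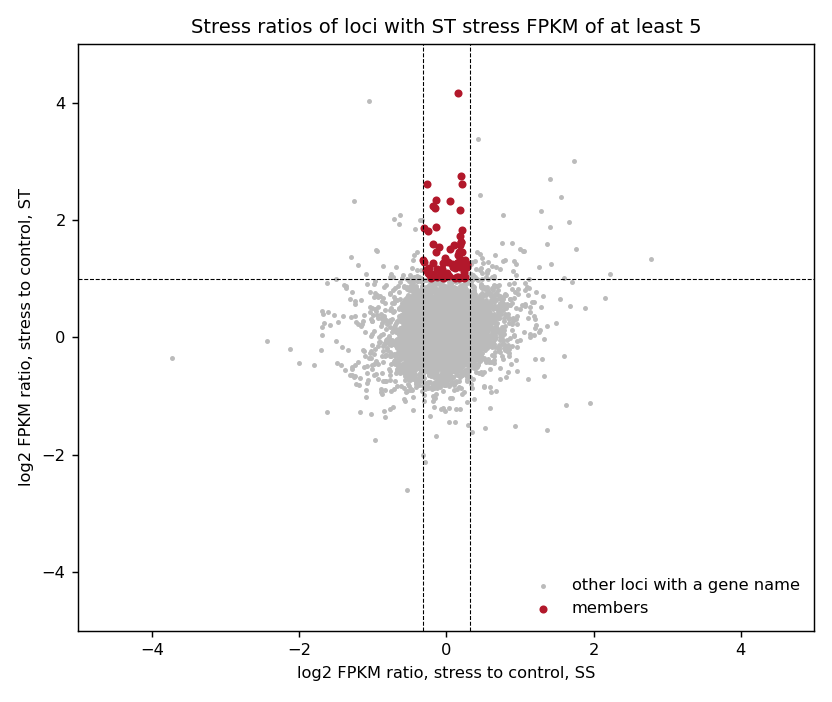
Each point is a locus with a gene name and ST salinity stress FPKM of at least 5, with the log2 FPKM ratio of stress to control in SS on the horizontal axis and in ST on the vertical axis. The 66 members with a value above 0 in ST control are drawn in red, inside the dashed limits of the rule, and their log2 ratios in ST run from 1.005 to 4.16 without a gap to the grey loci, 3 of which lie outside the axes.

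Most of the differences in ST were modest. The roots were sequenced whole, so more cells of a type and more RNA per cell under stress cannot be told apart. Over the 66 members with FPKM above 0 in ST control, the ratio of stress to control ran from 2.01 to 17.8, with a median of 2.41 (1.27 on the log2 scale). It was under 2.5 in 39 members, from 2.5 to 3 in 10, from 3 to 4 in 8 and at least 4 in 9. In SS the ratio ran from 0.805 to 1.22 with a median of 1.03, and it was above 1 in 38 members and below 1 in 29. Member FPKM in ST salinity stress ran from 5.18 to 942, with a median of 19.6. The median was 6.81 in ST control, 13.0 in SS control and 12.6 in stressed SS roots, so the 2 SS medians lay between the 2 ST medians.

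Within the set, the ratio was similar at low and high FPKM. Every ratio had to reach 2 and 39 of 66 lay under 2.5, so close medians follow in part from the rule. Among 17 members with ST salinity stress FPKM under 10, the median ratio was 2.31. It was 2.41 in the 29 members from 10 to 50, 2.68 in the 7 from 50 to 100 and 2.43 in the 14 at 100 or more.

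Each ST value was then placed against the SS pair of the same locus. A value was called below when it was under the lower SS value divided by 1.25, above when it was over the higher SS value times 1.25, and level otherwise. The rule leaves no member level in both ST groups, since a 2-fold difference is wider than the band. ST control was below SS in 41 members (61.2%), level in 15 and above in 11. ST salinity stress was above SS in 42 members (62.7%), level in 21 and below in 4. Among all 11772 loci open to the rule, ST control was below SS in 8.07% and ST salinity stress was above SS in 9.33%, but the rule's own 2-fold difference raises both shares among the members. The members thus fell into 5 patterns. The shares depended on the limits of the rule, with ST control below SS in 39.8% and ST salinity stress above SS in 59.1% at a 1.5-fold limit, and in 76.1% and 53.0% with no FPKM minimum.

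**Figure D2:**
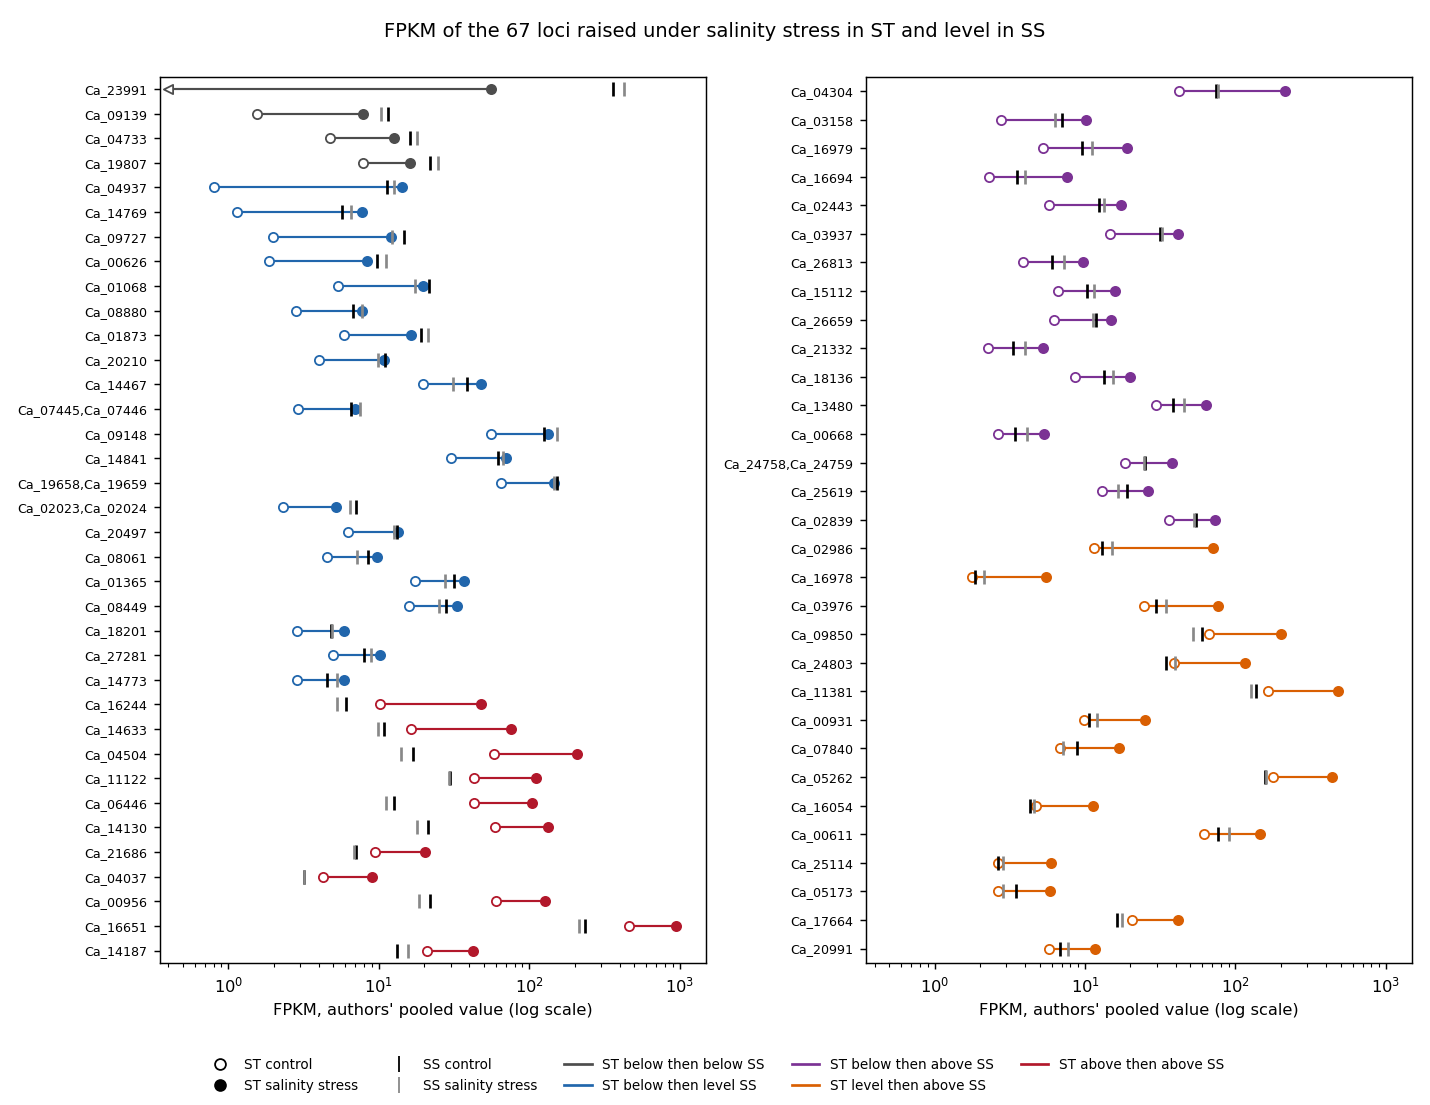
FPKM of each of the 67 members on a log axis, with ST control as an open circle, ST salinity stress as a filled circle, and SS control and SS salinity stress as black and grey bars. Colours mark the 5 patterns, and Ca_23991, listed at 0 in ST control, is drawn as an arrow at the left edge. ST salinity stress was level with SS or below it in the 25 members drawn in grey and blue, where level allows up to 1.25 times the higher SS value, and it was above that limit in the 42 others.

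In 21 members ST control was below SS and ST salinity stress was level with it, the most frequent of the 5 patterns. Ca_04937 had FPKM 11.3 in SS control, 12.6 in stressed SS roots, 0.805 in ST control and 14.4 in stressed ST roots. It had the largest ratio of any member with a value above 0 in ST control, 17.8, and it is the ST control value that stands apart from the other 3. The values of Ca_14769 were 5.66 and 6.50 in the SS groups, 1.15 in ST control and 7.72 in stressed ST roots, a ratio of 6.71 in ST. For Ca_09727 the SS groups had 14.7 and 12.3, ST control 1.97 and ST salinity stress 12.1, a ratio of 6.14. In these 3 genes a low ST control carried the difference, and the stressed ST roots matched SS.

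The other members of this pattern differed less. Over all 21, SS control exceeded ST control by 1.57-fold to 14.1-fold, with a median of 2.25-fold, while the ratio of ST salinity stress to SS salinity stress ran from 0.750 to 1.54, with a median of 1.09. Ca_01068 had FPKM 21.7 and 17.5 in the SS groups against 5.36 in ST control and 19.6 in stressed ST roots. Ca_09148 was more abundant, at 126 and 153 in the SS groups, 56.0 in ST control, with 133 in stressed ST roots. A locus that carries both Ca_19658 and Ca_19659, whose FPKM therefore belongs to both genes, had 152 and 146 in the SS groups, 65.0 in ST control and 145 in stressed ST roots. In all 3 loci the ST salinity stress value lay within or beside the range of the SS pair.

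In 4 members both ST values were below SS. The highest SS values among all members were those of Ca_23991, which had FPKM 358 in SS control and 426 in stressed SS roots, was listed at 0 in ST control and had 55.4 in stressed ST roots. Its level in SS salinity stress was still 7.69 times that in ST salinity stress, and no fold is given against the listed 0, which can be a failed estimate. Ca_09139 had FPKM 11.5 and 10.4 in the SS groups, 1.55 in ST control and 7.88 in stressed ST roots, a ratio of 5.09. Ca_04733 had 16.1 and 17.9 in the SS groups, against 4.78 and 12.7 in ST, and Ca_19807 had 22.1 and 24.6 against 7.86 and 16.1. All 4 genes had more FPKM in SS than in ST with or without salt. In the 3 with a value above 0 in ST control the ratio of SS to ST was smaller under stress, as the rule requires of every such member.

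In 16 members the ST values crossed the SS level, from below it in control to above it under stress. Such a crossing was found at 19 of the 11772 loci (0.161%), and nearly all of these crossings met the 2-fold rule. The margins on both sides of the SS pair already force a raised ST ratio at any crossing. That nearly all met the rule therefore follows in part from the margins. Ca_04304 was the most abundant, with FPKM 74.4 in SS control, 76.9 in stressed SS roots, 42.4 in ST control and 212 in stressed ST roots, a ratio of 4.996 in ST. Ca_03158 had 7.01 and 6.32 in the SS groups, 2.75 in ST control and 10.1 in stressed ST roots. Ca_16979 had 9.60 and 11.1 in the SS groups, 5.29 in ST control and 18.9 in stressed ST roots. The 2 SS values lay between the ST values in each of these genes, and the ST ratio over the 16 members had a median of 2.41 and a range from 2.01 to 4.996. SS control exceeded ST control by 1.30-fold to 2.55-fold, and ST salinity stress exceeded SS salinity stress by 1.28-fold to 2.76-fold.

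In 15 members ST control was level with SS and ST salinity stress alone stood above. In this pattern the ST control value lay within the margin of 1.25 around the SS pair, but the 3 other groups were not always equal. Ca_00611, for example, had FPKM 61.9 in ST control and 90.8 in stressed SS roots. Ca_02986 had FPKM 13.0 in SS control, 15.1 in stressed SS roots, 11.5 in ST control and 70.7 in stressed ST roots, a ratio of 6.16 and the third largest among the members above 0 in ST control. Ca_03976 had 29.8 and 34.3 in the SS groups, 24.8 in ST control and 76.2 in stressed ST roots, a ratio of 3.07. Ca_16978 was low throughout, with 1.85 and 2.13 in the SS groups, 1.78 in ST control and 5.52 in stressed ST roots, a ratio of 3.10. Over the 15 members, ST salinity stress was 1.51 to 4.69 times SS salinity stress, with a median of 2.39, while ST control was 0.757 to 1.25 times SS control.

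Several of the most abundant members had this pattern. Ca_11381 had FPKM 137 and 127 in the SS groups, 164 in ST control and 481 in stressed ST roots, a ratio of 2.92. The values of Ca_05262 were 158 and 161 in the SS groups, 178 in ST control and 435 in stressed ST roots, a ratio of 2.44. Ca_09850 went from 66.4 to 201 in ST, a ratio of 3.02, against 59.8 and 52.6 in SS. In all 3 genes the lowest 3 values lay close together and ST salinity stress was the outlying value. Ca_00611 had 77.0 and 90.8 in the SS groups, 61.9 in ST control and 145 in stressed ST roots.

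In 11 members ST was above SS already without salt. Ca_16244 had FPKM 6.01 in SS control, 5.30 in stressed SS roots, 10.1 in ST control and 48.0 in stressed ST roots, a ratio of 4.74. Ca_14633 had 10.9 and 9.82 in the SS groups, 16.5 in ST control and 75.6 in stressed ST roots, a ratio of 4.59. Ca_04504 had 16.8 and 14.1 in the SS groups against 58.5 and 206 in the ST groups, so that ST salinity stress was 14.6 times SS salinity stress. That was the widest difference between the stressed genotypes toward ST among the members. The most abundant member, Ca_16651, was also of this pattern, with 234 and 214 in the SS groups, 460.0 in ST control and 942 in stressed ST roots, a ratio of 2.05. Over the 11 members, ST control was 1.33 to 3.47 times SS control and ST salinity stress was 2.70 to 14.6 times SS salinity stress, with a median of 6.85. Their median FPKM in ST salinity stress, 104, was the highest of the 5 patterns, against 41.3 for the members level in the controls and 12.1 for those level under stress.

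Over the 66 members above 0 in ST control, the size of the log2 ratio of ST to SS was smaller under stress than in control in 34 and larger in 32. The median log2 ratio of ST to SS was -0.63 between the controls and 0.55 between the stressed groups, and both follow in part from the 2-fold difference that the rule asks for. Over the 11771 loci open to the rule and above 0 in ST control, the medians were -0.02 and 0.04.

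**Figure D3:**
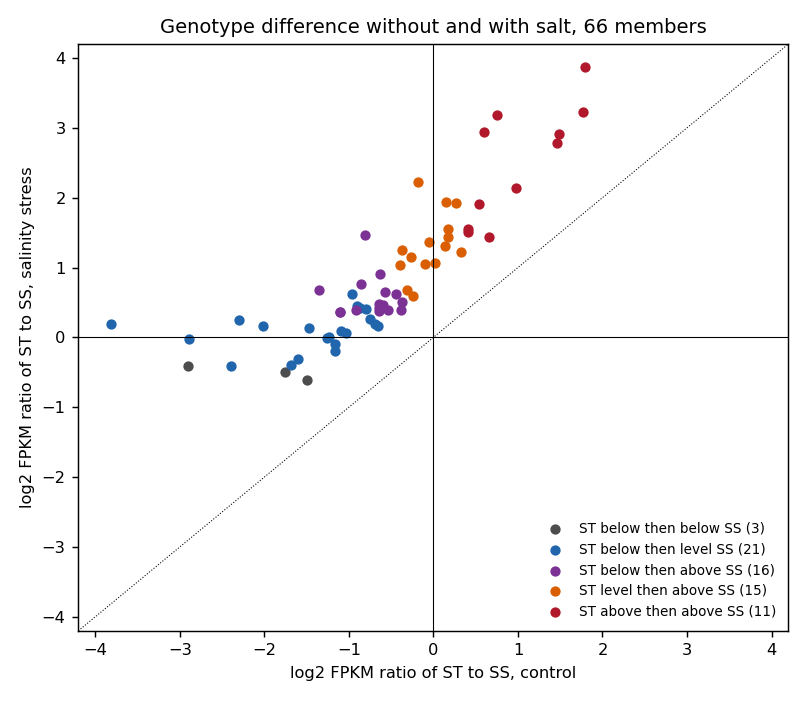
Each of the 66 members above 0 in ST control is placed by the log2 FPKM ratio of ST to SS in control (horizontal axis) and under salinity stress (vertical axis), with colours for the 5 patterns. All points lie above the dotted line of equal ratios, as the rule requires, and the medians are -0.63 in control and 0.55 under stress.

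The limits of the rule cut through closely spaced values. The members with the smallest ST ratios were Ca_20991, with FPKM 5.77 in ST control and 11.6 in stressed ST roots (a ratio of 2.01), and Ca_14187, with 20.9 and 42.1 (also 2.01). Just outside stood Ca_23770, at 5.39 and 10.8, and Ca_17416, at 6.93 and 13.8, with ratios of 1.999 and 1.998. Within the next 0.1 of the limit there were 13 members from 2 to 2.1 and 28 loci from 1.9 to 2 that met the rest of the rule. At the FPKM minimum, the locus of Ca_02023 and Ca_02024 entered with 5.18 in ST salinity stress and Ca_21332 with 5.25, whereas Ca_16928, at 1.18 in ST control and 4.97 in stressed ST roots, and Ca_18627, at 1.70 and 4.28, stayed out. A further 163 loci under the minimum met the rest of the rule. For the SS limits, Ca_09148 (an SS ratio of 1.22), Ca_21332 (1.21), Ca_07840 (0.805) and Ca_01068 (0.807) were the outermost members. The nearest loci outside were Ca_16727 and Ca_00612 above the upper limit, with SS ratios of 1.25 and 1.26, and Ca_14692 and Ca_08436 under the lower limit, with 0.794 and 0.788. Ca_08436 was abundant, with FPKM 145 and 114 in the SS groups, 161 in ST control and 358 in stressed ST roots.

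A few members had neighbouring numbers. By locus number, 1 pair of members was consecutive and 2 pairs, that one included, lay within 3 of each other. Members were 0.24% of all loci with a gene name, and whether such pairs exceed that share was not tested. Gene numbers run along the locus numbers in the table, since 82.7% of 25736 pairs of consecutive loci had gene numbers at most 3 apart. Positions in the genome were not used. The pair Ca_16978 and Ca_16979 had consecutive gene and locus numbers, and both had ST ratios above 3 (3.10 and 3.57). The genes numbered on either side were steady. Ca_16977 had FPKM 14.3 and 12.5 in SS and 14.1 and 13.3 in ST, control first, and Ca_16980 had 75.9 and 73.5 in SS and 70.9 and 63.9 in ST.

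The members Ca_14769 and Ca_14773 were also close in number. Ca_14773 had FPKM 4.50 and 5.24 in the SS groups, 2.87 in ST control and 5.85 in stressed ST roots, a ratio of 2.04. Between their gene numbers, but not their locus numbers, lies Ca_14770, picked after its values were seen. Ca_14770 is at XLOC_002656, whereas Ca_14769 is at XLOC_001083, and it is no member because its SS ratio was 0.655. Ca_14770 had 769 in SS control, 504 in stressed SS roots, 6.34 in ST control and 636 in stressed ST roots. The ST control value of both Ca_14769 and Ca_14770, adjacent by gene number only, was thus far under their other 3 values. Ca_14771 and Ca_14772, between the 2 members by gene and locus number, had at most 0.582 in any group. Ca_14774 had 2.81 and 2.27 in the SS groups against 1.62 and 2.04 in ST. Ca_14775 had 24.6 and 41.4 in the SS groups against 9.98 and 30.3 in ST. Some other genes of these numbers were not low in ST control. The locus of Ca_14767 and Ca_14768 had 685 and 799 in the SS groups against 880.0 and 625 in ST, Ca_14776 had 1277 and 1692 against 1253 and 1253, and Ca_14777 had 639 and 1147 against 689 and 1289.6. The counting is not stated to use strand, so reads of overlapping genes on opposite strands could not be told apart, and whether these genes overlap was not tested. 

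Across all members, 92 other loci had a gene number next to that of a member and FPKM of at least 1 in an ST group, and 14 of them (15.2%) were at least 1.5-fold higher in ST salinity stress. Over all 17485 loci with a gene name and the same minimum, 1196 were (6.84%). By locus number in place of gene number, 8 of 90 neighbours were (8.89%), against 7.79% of 20212 loci with or without a gene name. Whether these shares differ was not tested. Some of the 14 were low in FPKM, and some were also higher under stress in SS. Among the 14, Ca_00612 had FPKM 144 and 181 in the SS groups, 73.6 in ST control and 156 in stressed ST roots beside the member Ca_00611. Ca_11123, next to the member Ca_11122, had 18.2 and 20.3 in the SS groups, 14.5 in ST control and 28.9 in stressed ST roots, a ratio of 1.996 that fell just short of the rule. Both were singled out after their values were seen.

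Some members could not be tied to a single gene. At 4 loci the FPKM belonged to 2 gene names each. Besides those given, the locus of Ca_24758 and Ca_24759 had FPKM 25.0 and 24.6 in the SS groups, 18.4 in ST control and 37.7 in stressed ST roots, and that of Ca_07445 and Ca_07446 had 6.51 and 7.51, then 2.90 and 7.0025. The name Ca_14841 stood at 2 loci. At the member locus it had FPKM 62.4 and 66.6 in the SS groups, 30.4 in ST control and 69.6 in stressed ST roots, and at the other locus it had 45.6, 61.8, 42.6 and 53.6 in the same order. The 2-fold difference was thus found at only 1 of its 2 loci.

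The 17 genes that the study names by a Ca_ identifier, some of them with a stated role, were looked up as a list. None of them was a member, but members were only 0.24% of all loci with a gene name, so a list this short tells nothing by their absence. The study chose them on these libraries, with a 1.5-fold limit for differential expression. Their directions and the counts at 1.5-fold are therefore not independent evidence. The 17 genes stood at 18 loci. In ST, 8 of these were at least 1.5-fold higher under stress, against 6.84% of loci with a gene name, and 5 were at least 1.5-fold lower, against 4.48%. In SS, 2 were higher, against 3.74%, and 9 were lower, against 4.79%. The SS ratio lay inside the limits of the rule at 6 of the 18 loci. The nearest to membership was Ca_13125, for which no role was stated, with FPKM 3.44 and 3.14 in the SS groups, 2.58 in ST control and 5.11 in stressed ST roots, a ratio of 1.98. Ca_12085, described as a phosphate transporter of the Pht1 family, which takes up phosphate in roots, had 115 and 143 in the SS groups, 108 in ST control and 185 in stressed ST roots, a ratio of 1.72.

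Other genes of the list passed the 2-fold limit in ST or came near it, but also differed in SS. Ca_13970, a homolog of an Arabidopsis transmembrane protein linked to oxidative and osmotic stress, had FPKM 141 in ST control and 286 in stressed ST roots, a ratio of 2.03, but went from 286 to 169 in SS. Ca_22105, a homolog of an intracellular leucine-rich repeat protein, was higher under stress in both genotypes, with 45.8 and 86.4 in SS and 41.0 and 101 in ST. Ca_02410, a homolog of a MATE efflux protein, a family that exports organic compounds from cells, had an ST ratio of 1.88 and an SS ratio of 0.473. These genes were kept out of the set by their SS values and not by their ST values, except for Ca_02410, which also missed the 2-fold limit.

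Loci without a gene name met the other conditions more often than named ones, with 31 of 1136 (2.73%). They were 8.8% of all loci open to these conditions and 31.6% of the 98 loci that met them.

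The same conditions with the genotypes exchanged gave fewer loci. Higher FPKM under stress in SS with a steady ST was found at 19 of 10911 loci (0.174%), against 67 of 11772 (0.569%) for the members. Toward lower FPKM, 39 of 11785 loci (0.331%) met the rule in ST with a steady SS and 32 of 10998 (0.291%) in SS with a steady ST. After median-ratio scaling of the columns (each divided by its median ratio to the geometric mean of a locus), the counts toward higher FPKM were 58 in ST and 20 in SS. The log2 ratio of stress to control had a wider spread in ST, with an SD of 0.385 across the same 18918 loci, than in SS (0.345). Both ST counts rest on the same 2 ST columns, and whether the counts differ beyond the spread between libraries was not tested.

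In each of the 4 sets the values of the genotype that differed were placed against the pair of the other genotype, where the rule itself forces the control value, the stress value or both outside that pair. The control value lay on the far side in 41 of the 67 members, in 27 of the 39 loci lowered in ST only, in 14 of the 19 raised in SS only and in 18 of the 32 lowered in SS only. The stress value lay beyond the pair in 42, 22, 13 and 19 loci of the same sets. The sets share their columns and were chosen on them, so these counts are a description.

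**Figure D4:**
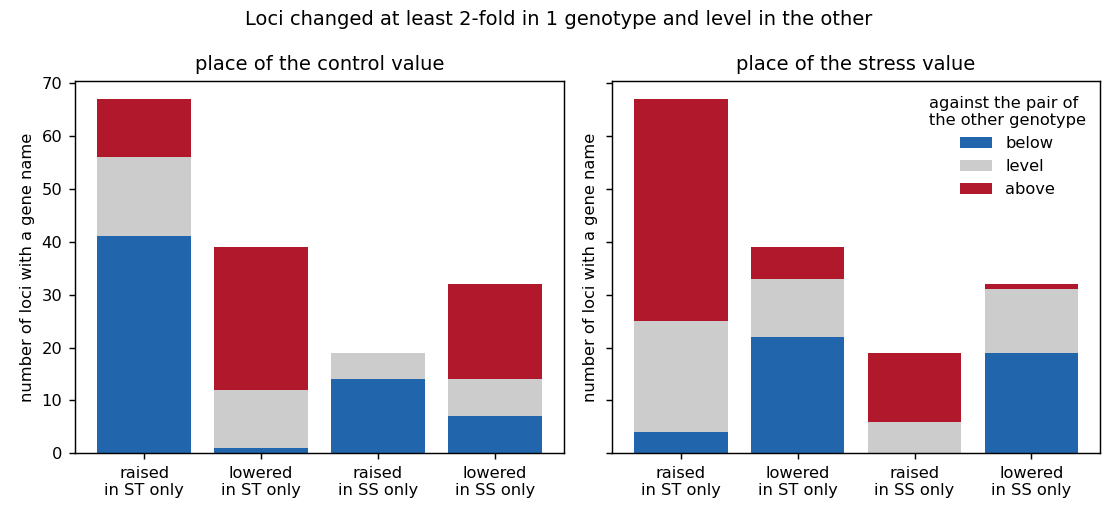
Number of loci with a gene name that met the rule for each genotype and direction, coloured by whether the control value (left) and the stress value (right) of the genotype that differed lay below, level with or above the pair of the other genotype. The bar of loci raised in ST only is the tallest at 67, with 41 below in control and 42 above under stress.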

How the data were processed

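Root RNA of 8 libraries in 4 groups was sequenced. Per the labels and the paper, the authors filtered single-end reads with NGS QC Toolkit and mapped them with TopHat2 2.1.1 on the Kabuli chickpea genome. They assembled with Cufflinks 2.2.1 and estimated expression with Cuffdiff, version 2.2.1 in the submitters' processing notes and 2.1.1 in the paper. The deposited values are FPKM, pooled by the authors per locus and group, with the scaling between libraries not given in the sources used here. Whole reads could not be recovered, since among 479 loci under FPKM 0.2 in both ST groups no ratio was shared by more than 2.

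Members, gene lists and the rule for named genes were chosen with earlier results of these data known. That rule took the 8 largest ST ratios, any member listed at 0 in ST control, the 8 highest ST salinity stress FPKM, the 3 largest ratios of each pattern, 2 loci either side of each limit, consecutive members members that the paper names (none) and loci with several names. The plain FPKM ratio without a pseudocount was used. No count or ratio was tested, because each group has 1 pooled column. Alternatives were pseudocounts of 1 and 0.1, other FPKM minimums, folds and SS limits, 2 column scalings and other choices of loci. Whether the rule picks loci through spread between libraries alone was not tested. Percentages of members carry 95% Wilson intervals for labelling alternatives only. The RefSeq gene table at hand shares no identifier with the files and was not used, and no sequence is given. Python 3.11.15, numpy 2.4.6, pandas 2.3.3, scipy 1.17.1 and matplotlib 3.10.9 were used.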

Additional observations from a re-analysis of the deposited data

How the results depend on the processing

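No paired analysis was possible because each group has 1 pooled column, and no library could be left out. The number of members depended on the limits of the rule. It was 230 with no FPKM minimum, 133 with a minimum of 1, 384 at 1.5-fold, 18 at 3-fold, 28 with SS limits of 9/10 and 10/9, and 109 with SS limits of 2/3 and 3/2. The count for the exchanged genotypes was 138, 52, 117, 3, 11 and 37 under the same settings, and 32 when loci without a gene name were included. Under each setting run, more loci were raised in ST only than in SS only. Pseudocounts, scalings, a minimum of 10 and other choices of loci left between 50 and 98 members, and 50 of the 67 remained with a pseudocount of 1 and 56 with either scaling. The share of members with ST control below SS was 76.1% with no FPKM minimum and 39.8% at 1.5-fold, and between 56.0% and 70.7% otherwise. The share with ST salinity stress above SS ran from 53.0% to 68.0%. Under either scaling 5 of 30 named members above 0 in ST control fell under 2-fold.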

Other observations

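Of the 31 loci without a gene name that met the other conditions of the rule, ST control was below SS in 19 and ST salinity stress was above SS in 22. Here too the rule's own 2-fold difference raises both counts. The shares over all loci without a gene name were not computed. The loci given here were picked after their values were seen. XLOC_028411 had the highest level, with FPKM 409 and 353 in the SS groups, 119 in ST control and 462 in stressed ST roots. XLOC_027509 had 160.5 and 151 in the SS groups, 127 in ST control and 438 in stressed ST roots, so only the stressed ST roots stood apart. XLOC_023456 had 185 and 160.1 in the SS groups, 6.10 in ST control and 57.2 in stressed ST roots, and both ST values were under the SS level. In 2 cases consecutive locus numbers met the conditions together, XLOC_019986 with XLOC_019987 and XLOC_020066 with XLOC_020067.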
